A study of Mus musculus with 9 samples.

Results

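The secreted WNT antagonists are proteins that cells release to restrain WNT signalling from outside the cell. Their genes Frzb, Sfrp1, Sfrp2, Sfrp4, Sfrp5, Dkk1, Dkk2, Dkk3 and Wif1 were chosen by symbol, and all 9 were among the 55450 genes listed for mouse articular chondrocytes, the cells of joint cartilage. The 9 RNA-seq libraries fell into 3 groups of 3. In the first group, primary chondrocytes received 50 µg/mL bleomycin, a DNA-damaging drug, for 24 h, and then 20 µM ST045849, an inhibitor of the enzyme that attaches the sugar O-GlcNAc to proteins, for 5 days. In the second group the same bleomycin exposure was followed by 5 days in DMSO, the solvent. In the third group, called vehicle here, PBS stood in for bleomycin and DMSO followed for 5 days. By the title of the series, the question was how a block of O-GlcNAcylation bears on senescence, the lasting growth arrest of stressed cells. All cells shared a 4 h exposure to 4 U/mL hyaluronidase before bleomycin or PBS, 10% serum apart from that step, 3% oxygen and fresh medium every 48 h. No cells without bleomycin received ST045849 among the groups used here, so what it does by itself cannot be told apart from what it does after bleomycin. Whether replicates came from separate animals or cultures is not stated in the labels, and the p-values then measure only the spread between these samples, which may be technical.

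WNT proteins are lipid-modified signals that bind Frizzled receptors, and in the canonical branch they also bind the co-receptors LRP5 and LRP6, which leads to the build-up of beta-catenin and to transcription through TCF/LEF factors. The secreted frizzled-related proteins (Sfrp1, Sfrp2, Sfrp4, Sfrp5 and Frzb) carry a cysteine-rich domain like that of Frizzled, and Wif1 carries a different domain, the WIF domain, and through these they bind WNT ligands. Dkk1 and Dkk2 act at the receptor instead and bind LRP5 and LRP6, whereas Dkk3 is the divergent member of the Dickkopf family and its effect on WNT signalling depends on the cell. In articular cartilage, excess canonical WNT signalling is known to go with loss of matrix and a shift towards hypertrophy, and Frzb and Wif1 are known as cartilage products.

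Promoter sequence was held for 6 of the 9 genes (250 bases before to 50 bases after the annotated start, RefSeq, GRCm38.p6). The window is shown whole for Sfrp2 and Wif1, which were higher after bleomycin, at chr3:83766071-83766370 and chr10:121033754-121034053 on the plus strand. For Frzb and Dkk1, the members with a TCF/LEF core in their windows, 30 bases around each match are shown, at chr2:80447474-80447503 (Frzb), chr19:30549653-30549682 (the first of Dkk1) and chr19:30549596-30549625 (the second of Dkk1), all on the minus strand. All are written 5′ to 3′ on the strand of the gene, and capitals mark the core CTTTGA or its reverse complement TCAAAG.
Sfrp2: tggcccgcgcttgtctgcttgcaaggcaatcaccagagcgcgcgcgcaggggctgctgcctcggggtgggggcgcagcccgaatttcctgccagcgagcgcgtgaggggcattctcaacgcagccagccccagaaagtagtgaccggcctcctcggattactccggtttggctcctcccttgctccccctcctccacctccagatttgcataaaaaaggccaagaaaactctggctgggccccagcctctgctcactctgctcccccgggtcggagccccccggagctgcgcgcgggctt
Wif1: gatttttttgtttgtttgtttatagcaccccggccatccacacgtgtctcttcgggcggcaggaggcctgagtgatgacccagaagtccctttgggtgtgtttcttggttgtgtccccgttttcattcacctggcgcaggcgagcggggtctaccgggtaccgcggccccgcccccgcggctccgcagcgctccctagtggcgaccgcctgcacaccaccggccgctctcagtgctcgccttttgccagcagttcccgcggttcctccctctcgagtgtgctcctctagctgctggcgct
Frzb: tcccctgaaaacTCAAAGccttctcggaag
Dkk1, first match: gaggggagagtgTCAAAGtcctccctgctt
Dkk1, second match: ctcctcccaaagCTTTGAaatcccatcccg
The core was searched on both strands. Frzb held 1 match, 95 bases upstream of its RefSeq start, and Dkk1 held 2, at 174 and 117 bases upstream. In GENCODE, from which the gene coordinates given with the levels were taken, Frzb begins 229 bases and Dkk1 169 bases before the RefSeq start. By that annotation the Frzb match lies 134 bases inside the gene, and the Dkk1 matches lie 5 bases upstream of the gene and 52 bases inside it. The 2 starts coincide for Sfrp2 and differ by 44 bases for Wif1. No match lay in the windows of Sfrp2, Wif1, Sfrp5 or Dkk2, and 16.0% of the 32851 promoter windows held at least 1. None of the 6 windows held the AP-1 motif TGANTCA, which 7.80% of all windows held. The Sfrp2 and Wif1 windows had 22 and 25 CpG dinucleotides and the Frzb window had 20, against a median of 7 over all windows. Sfrp5 had 15, Dkk2 had 11 and Dkk1 had 9. Such counts are common, as 76.9%, 81.6% and 73.5% of all windows had fewer than Sfrp2, Wif1 and Frzb. These matches describe letters in these windows only.

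Levels are given in FPKM, fragment counts scaled by the exon length of the gene and the size of the library, so genes can be set beside each other per length. Libraries had similar depth by the steps between their low values (0.875 to 1.00 of that of vehicle library 1), but absolute depth is unknown. The defining genes of the labelled cell type were high: Col2a1, the main cartilage collagen, averaged 12820 ± 2906 FPKM with bleomycin plus ST045849, 15380 ± 3045 with bleomycin and 19960 ± 3891 with vehicle (SD, n = 3 each). Genes were tested with limma on log2(FPKM + 1) where at least 3 of the 9 libraries reached 1 FPKM, which kept 12441 genes and 6 of the 9 antagonists, and calls were made where the adjusted p was below 0.05. A fold change on this scale understates the change of low genes. Libraries of the bleomycin plus ST045849 group differed among themselves: its library 1 had the highest value of its group for Frzb, Sfrp1, Sfrp2, Sfrp4, Dkk3 and Wif1, and its library 2 had the lowest for the same 6 genes. For the antagonists, results that turn on either library are given with and without it. For other genes, calls are those of the main test unless another setting is named.

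Bleomycin-treated chondrocytes had more mRNA of 4 of the 6 tested antagonists than vehicle cells. Dkk3, Sfrp2, Sfrp4 and Wif1 rose, by 3.06 to 6.48 times as ratios of mean FPKM. Frzb and Sfrp1 did not pass the test, and none of the 6 was called lower. Against these 4 of 6, 4.20% of all tested genes were called higher. Of these 4, Sfrp4 passed the filter only with the help of the groups with bleomycin. The antagonists were chosen with earlier results of these data known, so this contrast is a description only. The groups did not overlap for the same 4 genes, as for 21.4% of tested genes in that direction. The median log2 difference was 1.82 over the 6 tested antagonists and 0.10 over all tested genes.

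Dkk3, the divergent Dickkopf (chr7:112116017-112159057, minus strand, 8 exon blocks), was the most abundant antagonist in every library. It had 284.5, 261.9 and 276.6 FPKM in the bleomycin libraries, against 79.6, 90.4 and 98.7 FPKM in the vehicle libraries. Every bleomycin library was above every vehicle library, and the 3 bleomycin values lay close together (coefficient of variation 4.17%). The log2 difference was 1.61 ± 0.22 (SE; limma adjusted p = 0.00356). By mean level Dkk3 had 169 tested genes above it after bleomycin and 575 with vehicle.

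Sfrp2, a frizzled-related protein that binds WNT ligands (chr3:83766321-83774316, plus strand, 5 exon blocks), had 43.2, 34.0 and 34.8 FPKM after bleomycin, against 5.42, 9.36 and 9.91 FPKM with vehicle. The groups lay far apart, with no vehicle library near the lowest bleomycin library. The log2 difference was 2.08 ± 0.25 (limma adjusted p = 0.00256). Of its exon bases, 16.1% overlap Gm26771 on the opposite strand, and whether strand was used in counting is not given in the sources used here. Gm26771 itself was listed at 0.153, 0.147 and 0.148 FPKM after bleomycin and at 0, 0.133 and 0.108 FPKM with vehicle. By mean FPKM Sfrp2 stood above 87.3% of tested genes in bleomycin cells and above 52.5% in vehicle cells.

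Sfrp4 (chr13:19623104-19632994, plus strand, 6 exon blocks), the relative of Frzb within the family, had 9.86, 6.41 and 8.76 FPKM after bleomycin, against 1.86, 0.923 and 1.08 FPKM with vehicle. The groups lay apart, and the log2 difference was 2.03 ± 0.30 (limma adjusted p = 0.0043). Vehicle library 2 was below 1 FPKM, so Sfrp4 passed the filter only with the help of the groups with bleomycin. With no filter its limma adjusted p was 0.0298. Wif1, which binds WNT ligands through its WIF domain (chr10:121033960-121100650, plus strand, 10 exon blocks), had 16.4, 9.72 and 8.26 FPKM after bleomycin, against 2.86, 1.59 and 1.32 FPKM with vehicle. These groups lay apart too, with library 1 highest in each. The log2 difference of Wif1 was 2.07 ± 0.35 (limma adjusted p = 0.00787). The calls of Dkk3, Sfrp2, Sfrp4 and Wif1 held in every alternative that tested them and with any 1 library left out, the highest adjusted p being 0.0468, for Wif1 with no filter on low values.

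Frzb (chr2:80411970-80447625, minus strand, 6 exon blocks), the frizzled-related protein first found in cartilage, had 91.4, 55.2 and 36.0 FPKM after bleomycin, against 30.2, 52.2 and 42.7 FPKM with vehicle. The groups overlapped, and bleomycin library 1 was far above the other libraries of both groups. The log2 difference was 0.47 (limma adjusted p = 0.693), and its 95% interval, -0.53 to 1.47, covers a fall as well as a rise. Sfrp1 (chr8:23411502-23449632, plus strand, 3 exon blocks), which binds WNT ligands like Sfrp2, had 2.81, 2.77 and 2.28 FPKM after bleomycin, against 1.71, 3.78 and 2.75 FPKM with vehicle. The bleomycin values lay inside the range of the vehicle values, and the log2 difference was -0.01 with an interval of -0.56 to 0.53 (limma adjusted p = 0.99), and its sign turned after rescaling to TPM.

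The remaining 3 antagonists were too low to pass the filter of the main test. Sfrp5 (chr19:42197971-42202252, minus strand, 3 exon blocks), the third member of the Sfrp1 and Sfrp2 branch, had 0.236, 0.188 and 0.150 FPKM after bleomycin, against 0.459, 0.680 and 0.755 FPKM with vehicle. Here the bleomycin libraries lay below every vehicle library, the opposite order to that of Sfrp2. Of the tested genes, 6.53% were lower in bleomycin libraries without overlap, a share that leaves out genes below the filter such as Sfrp5. In a fit with no filter the log2 difference was -0.45 ± 0.10 (limma adjusted p = 0.0779), which missed the threshold. After rescaling to TPM it was -0.82 ± 0.22 and missed it too (limma adjusted p = 0.0568). Dkk1 (chr19:30545863-30549665, minus strand, 4 exon blocks), the classical LRP5 and LRP6 blocker, was listed at 0.0232, 0.263 and 0.218 FPKM after bleomycin and at 0, 0 and 0.0623 FPKM with vehicle. Dkk2 (chr3:132085292-132180304, plus strand, 4 exon blocks), which binds the same co-receptors, was listed at 0.0717, 0.0341 and 0.0172 FPKM after bleomycin and at 0 in all 3 vehicle libraries. Bleomycin libraries also listed more genes above 0 in all, 22445 to 23218, against 20355 to 20893 in vehicle libraries, and its part in the values of Dkk1 and Dkk2 was not tested.

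**Figure D1:**
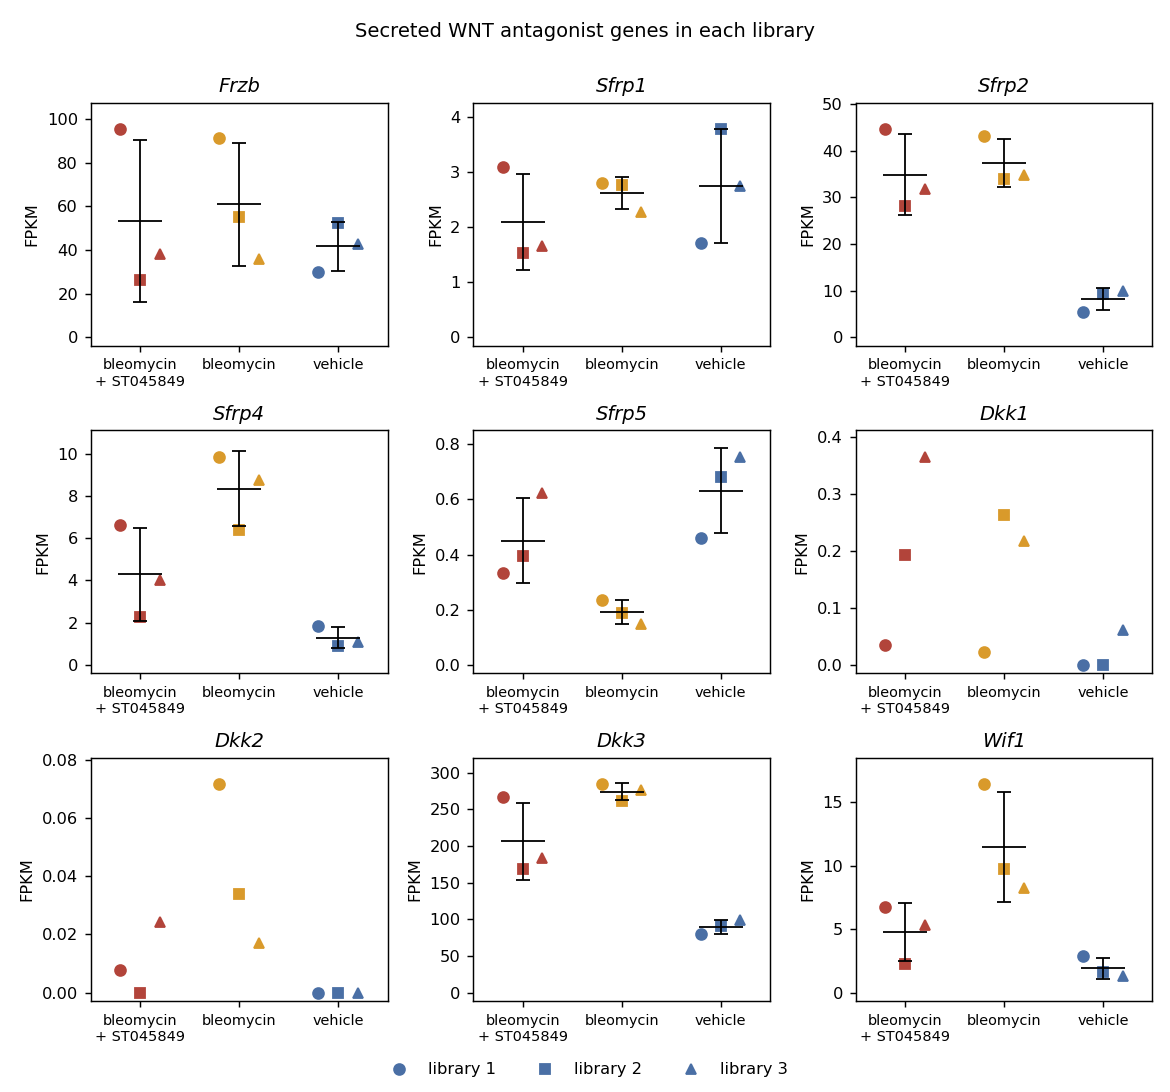
Level of each of the 9 antagonist genes (y axis, FPKM, with its own scale in each panel) in the 3 libraries of each group, which is named on the x axis. Horizontal lines and bars are the group mean and SD, not drawn for Dkk1 and Dkk2, which were listed at 0 in some libraries. Dkk3, Sfrp2, Sfrp4 and Wif1 lie higher in all 3 bleomycin libraries than in all 3 vehicle libraries, as does Dkk2, listed at 0 with vehicle, and Sfrp5 lies lower.

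Added together, the 9 antagonist genes reached 448.5, 370.4 and 367.0 FPKM in the bleomycin libraries, against 122.1, 159.0 and 157.2 FPKM in the vehicle libraries. Dkk3 alone made up 63.4 to 75.4% of this sum after bleomycin and 56.9 to 65.2% with vehicle. Frzb, the next most abundant, took 9.80 to 20.4% after bleomycin and 24.7 to 32.9% with vehicle, without overlap, although its own level did not pass the test. Without Dkk3 the sum was 121.0 ± 38.3 FPKM after bleomycin and 56.5 ± 13.2 FPKM with vehicle (SD, n = 3 each). The order of levels was Dkk3, Frzb, Sfrp2, Wif1, Sfrp4, Sfrp1, Sfrp5, Dkk1 and Dkk2 by group mean, with or without ST045849 after bleomycin. In vehicle cells Sfrp1 stood above Wif1 and Sfrp4. In bleomycin cells the library values overlapped between Frzb and Sfrp2, between Wif1 and Sfrp4, and among Sfrp5, Dkk1 and Dkk2 as neighbours. In vehicle cells they overlapped among Sfrp1, Wif1 and Sfrp4 and between Dkk1 and Dkk2.

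**Figure D2:**
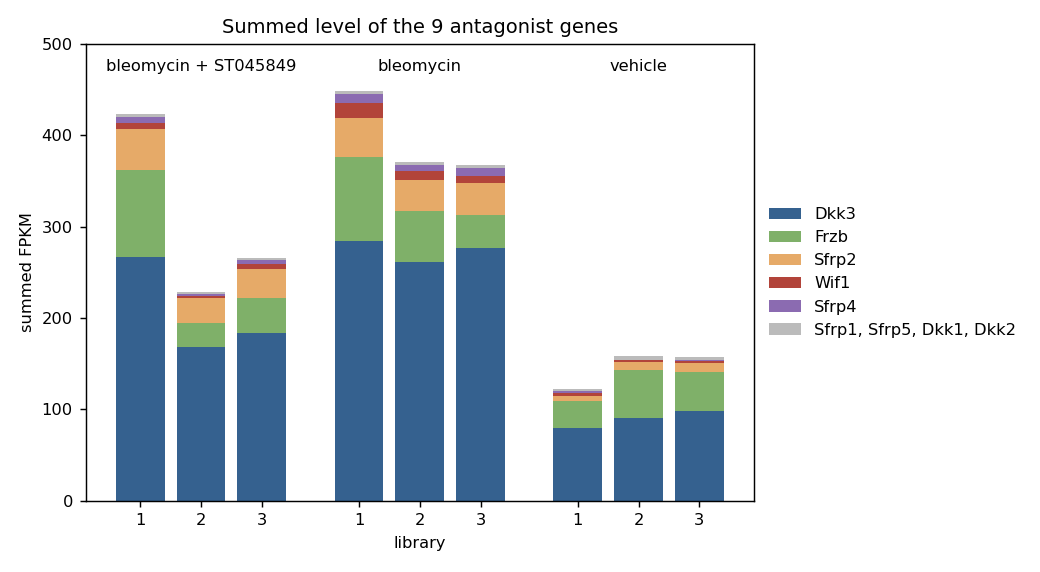
Summed FPKM of the 9 antagonist genes (y axis) in each library (x axis), with the groups named above the bars and each colour the contribution of a gene. The bars of the 3 bleomycin libraries reach 367.0 to 448.5 FPKM and those of the 3 vehicle libraries 122.1 to 159.0 FPKM, with Dkk3 the largest piece throughout.

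Markers of other cell types moved in the same comparison, and their part in the antagonist values was not tested. In bulk RNA, fewer cells of a type and less RNA per cell cannot be told apart. Of the 13 fibroblast or synovial markers, 10 were tested and 5 rose after bleomycin (Thy1, Cd34, Dcn, Lum and Htra1), none fell, and the median log2 difference was 1.01, beside 4.20% of all tested genes called higher. The call of Cd34 held with any 1 library left out. That of Thy1 was lost without bleomycin library 1 or vehicle library 2 or 3, that of Htra1 without bleomycin library 2 or 3 or any single vehicle library, and those of Dcn and Lum without library 3 of the ST045849 group or any single bleomycin or vehicle library (adjusted p up to 0.186). Their summed level was 6523 to 8759 FPKM in bleomycin libraries, against 4014 to 4955 FPKM in vehicle libraries. Thy1, a surface marker of fibroblasts, had 35.5, 19.9 and 19.7 FPKM after bleomycin, against 9.57, 3.38 and 4.36 FPKM with vehicle (log2 difference 2.00 ± 0.37, limma adjusted p = 0.0126). Dpp4 was at or below 1.06 FPKM in each library, and Pi16 and Clic5 at or below 0.101 FPKM, with none of the 13 listed at 0 in all 9 libraries.

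Of 9 osteoblast or osteocyte markers, 6 were tested and Bglap and Dmp1 rose, beside 4.20% of all tested genes called higher. Both were below 1 FPKM in every vehicle library, so they passed the filter only through the groups with bleomycin. The summed levels of the 9 were 41.6 to 109.1 FPKM after bleomycin and 16.2 to 37.8 FPKM with vehicle. The call of Bglap held with any 1 library left out, and that of Dmp1 was lost without bleomycin library 1 or 2 or any single vehicle library (adjusted p up to 0.104). All 3 tested macrophage markers of 10 (Lyz2, Cd68 and Cd14) rose, beside the same 4.20% of all tested genes. Lyz2 was below 1 FPKM in vehicle library 3 and Cd68 in vehicle library 2. Both therefore passed the filter only with the help of the groups with bleomycin. The 10 macrophage markers summed to 10.9 to 12.6 FPKM after bleomycin and 3.05 to 5.75 FPKM with vehicle. The defining genes C1qb, C1qc and Tyrobp were at 0 throughout the 9 libraries. The calls of Lyz2 and Cd14 were lost without any single bleomycin library or vehicle library 2 or 3, and that of Cd68 without bleomycin library 2 or 3 or vehicle library 2 or 3 (adjusted p up to 0.162). None of the 11 chondrocyte markers passed the limma test, with 9 lower, 2 higher and a median log2 difference of -0.39. Their sums were 20240 to 28580 FPKM after bleomycin and 27210 to 37690 FPKM with vehicle. Only Acan had an unadjusted limma p under 0.05, averaging 619.3 FPKM after bleomycin and 1275 FPKM with vehicle. Its log2 difference was -1.03 ± 0.28 (limma adjusted p = 0.0653), called in 7 of 24 alternatives. No gene passed the test among 3 tested tendon markers, 2 of skeletal muscle and 1 of adipocytes, and no endothelial marker reached the filter.

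With ST045849 after bleomycin, all 6 tested antagonists had a lower fitted mean than with bleomycin alone (the signs of Frzb and Sfrp2 turned when single libraries were left out), but none passed the limma test without the replicate number. The differences of Wif1 and Sfrp4 were the largest. Both were called when libraries of the same number were paired in a fit of these groups alone, which called 19.3% of all tested genes. That pairing was taken from the data, and neither was called with it in the fit of all 9 libraries. Dkk3, Frzb, Sfrp1 and Sfrp2 were not called in any of these fits. The median log2 difference was -0.37 over the 6 antagonists and 0.06 over all tested genes, of which 0.0% were called. At an unadjusted p under 0.05 limma counted 2804 genes, or 22.5%, and 2 of the 6 antagonists, Wif1 and Sfrp4.

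Wif1 had 6.76, 2.24 and 5.31 FPKM with bleomycin plus ST045849, against 16.4, 9.72 and 8.26 FPKM with bleomycin. Every library with ST045849 was below every bleomycin library, as for 8.67% of tested genes in that direction. The ratio of the means was 0.416, and the log2 difference was -1.15 ± 0.35 (limma adjusted p = 0.203). Sfrp4 had 6.62, 2.25 and 4.00 FPKM with bleomycin plus ST045849, against 9.86, 6.41 and 8.76 FPKM with bleomycin. Its groups overlapped through library 1 with ST045849, which lay just above bleomycin library 2. The log2 difference of Sfrp4 was -0.89 ± 0.30 (limma adjusted p = 0.203).

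Libraries of the same number deviated together in these groups (correlations of 0.47, 0.48 and 0.50 over all tested genes). Those of different number stood at -0.32 to -0.17 here. Between the ST045849 and vehicle groups, libraries of different number reached 0.57, so such values alone do not establish pairs. With the replicate number as a block and the groups with bleomycin fitted alone, Wif1 fell by 1.15 ± 0.23 (limma adjusted p = 0.0169) and Sfrp4 fell by 0.89 ± 0.20 (limma adjusted p = 0.0199) on the log2 scale. That fit called 19.3% of all tested genes, with 8.0% of tested genes called lower, beside 2 of the 6 antagonists. With the block in the fit of all 9 libraries none of the 6 was called (Wif1 and Sfrp4 each at a limma adjusted p of 0.203). With the gene length trend of each library removed as well, the paired fit called 1.13% of genes, 0.483% lower, and Wif1 was called (-1.40 ± 0.23, limma adjusted p = 0.0447) while Sfrp4 was not (adjusted p = 0.0514). Without library 1 of the ST045849 group, and with no block, Wif1 (-1.41, limma adjusted p = 0.0319) and Sfrp4 (-1.19, limma adjusted p = 0.0261) were called too. Leaving that library out called 2225 of the 12441 tested genes.

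Dkk3 had 266.9, 168.1 and 184.0 FPKM with bleomycin plus ST045849, against 284.5, 261.9 and 276.6 FPKM with bleomycin. Libraries 2 and 3 with ST045849 were below all bleomycin libraries, and library 1 was among them. The log2 difference was -0.44 with an interval of -0.93 to 0.05 (limma adjusted p = 0.249; 0.144 with the replicate block, 0.0512 without library 1 of the ST045849 group). Sfrp2 had 44.7, 28.1 and 31.8 FPKM with bleomycin plus ST045849, against 43.2, 34.0 and 34.8 FPKM with bleomycin, so the groups overlapped. Its log2 difference was -0.11 with an interval of -0.68 to 0.45 (limma adjusted p = 0.789), and its sign turned without library 2 of the ST045849 group.

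Frzb had 95.4, 26.1 and 38.4 FPKM with bleomycin plus ST045849, against 91.4, 55.2 and 36.0 FPKM with bleomycin. Library 1 was the highest in each group and the groups overlapped over almost their whole range. The log2 difference of -0.30 had an interval of -1.30 to 0.70 (limma adjusted p = 0.682), and its sign turned without library 2 of the ST045849 group or library 1 of the bleomycin group. Sfrp1 had 3.10, 1.53 and 1.66 FPKM with bleomycin plus ST045849, against 2.81, 2.77 and 2.28 FPKM with bleomycin (log2 difference -0.26, interval -0.80 to 0.29, limma adjusted p = 0.508). Sfrp5 was listed at 0.334, 0.396 and 0.623 FPKM with bleomycin plus ST045849, above the 0.150 to 0.236 FPKM of the bleomycin libraries. Of the tested genes, which leave out Sfrp5 and others below the filter, 16.5% were higher without overlap. In the fit with no filter the log2 difference of Sfrp5 was 0.28 ± 0.10 (limma adjusted p = 0.375). Dkk1 was listed at 0.0358, 0.194 and 0.366 FPKM with bleomycin plus ST045849, and library 1 was the lowest there as it was among bleomycin libraries. Dkk2 was listed at 0.00781, 0 and 0.0243 FPKM with bleomycin plus ST045849.

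**Figure D3:**
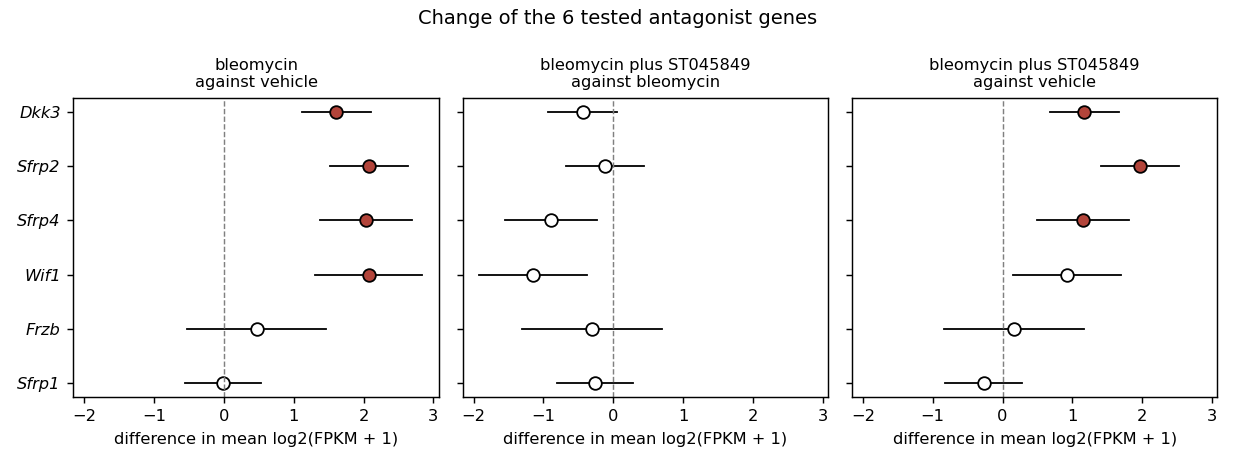
Difference in mean log2(FPKM + 1) (x axis) of the 6 tested antagonist genes in the 3 comparisons, with 95% intervals as lines and genes called at an adjusted p under 0.05 filled. Dkk3, Sfrp2, Sfrp4 and Wif1 are filled in the left panel and none in the middle panel, where all 6 points lie below 0, and Dkk3, Sfrp2 and Sfrp4 are filled in the right panel.

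Markers of cell types also moved with ST045849 in the paired fit, and their part in the values of Wif1 and Sfrp4 was not tested. There 3 of 10 tested fibroblast or synovial markers (Col3a1, Htra1 and Pdgfra), 3 of 11 chondrocyte markers (Col11a1, Hapln1 and Matn3), 2 of 6 osteoblast or osteocyte markers (Ibsp and Runx2) and 1 of 3 tendon markers (Mkx) fell, beside 8.0% of all tested genes called lower. The 1 tested adipocyte marker, Fabp4, rose (0.83 ± 0.21, limma adjusted p = 0.0269), beside 11.3% of all tested genes called higher. With the length trend removed as well, Htra1 and Ibsp alone of these 10 genes were called, and none was called with the block in the fit of all 9 libraries. The summed fibroblast or synovial level was 3673 to 7067 FPKM with bleomycin plus ST045849, against 6523 to 8759 FPKM with bleomycin, and the summed chondrocyte level was 16920 to 24130 FPKM, against 20240 to 28580 FPKM. The osteoblast or osteocyte sum was 20.8 to 63.0 FPKM with bleomycin plus ST045849, against 41.6 to 109.1 FPKM with bleomycin. Macrophage markers summed to 11.9 to 18.0 FPKM with bleomycin plus ST045849, against 10.9 to 12.6 FPKM with bleomycin. The summed level of the 9 antagonists was 306.3 ± 103.5 FPKM with bleomycin plus ST045849 and 395.3 ± 46.1 FPKM with bleomycin (SD, n = 3 each), and library 1 with ST045849, at 423.8 FPKM, lay inside the bleomycin range.

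Set against vehicle, cells with bleomycin plus ST045849 still had more Dkk3, Sfrp2 and Sfrp4 mRNA, while Wif1 missed the threshold. This comparison shares the vehicle libraries with bleomycin against vehicle, so its values are given side by side and not as a repeat. Of the 6 tested antagonists 3 rose and none fell, beside 8.11% of all tested genes called higher. The groups lay apart for the same 3 genes, as for 21.0% of tested genes in that direction, and the median log2 difference was 1.03 against 0.19 over all tested genes. Sfrp2 differed by 1.97 ± 0.25 on the log2 scale (limma adjusted p = 0.00214), close to its 2.08 ± 0.25 in bleomycin against vehicle. Dkk3 differed by 1.17 ± 0.22 (limma adjusted p = 0.0108), where bleomycin alone gave 1.61 ± 0.22. Sfrp4 differed by 1.15 ± 0.30 (limma adjusted p = 0.0369), where bleomycin alone gave 2.03 ± 0.30.

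Wif1 differed by 0.92 ± 0.35 (limma adjusted p = 0.105), and library 2 with ST045849, at 2.24 FPKM, lay among the vehicle values of 1.32 to 2.86 FPKM. Without that library Wif1 passed (1.29, limma adjusted p = 0.0449), as it did with array weights (1.16, limma adjusted p = 0.033). Sfrp4 did not pass without library 3 of the ST045849 group (limma adjusted p = 0.095), library 3 of the bleomycin group (0.0561), or vehicle library 2 (0.153) or 3 (0.126), nor after median-of-ratios scaling (0.069), rescaling to TPM (0.0944), with no filter (0.115) or in a fit of this pair of groups alone (0.063). Dkk3 did not pass without vehicle library 2 (limma adjusted p = 0.0512), after quantile normalization (0.105) or after rescaling to TPM (0.0682). Sfrp2 passed with any 1 library left out, at limma adjusted p-values of 0.00342 to 0.0103. Frzb (0.17, limma adjusted p = 0.819) and Sfrp1 (-0.27, limma adjusted p = 0.467) did not pass, and the sign of Frzb turned under each of the 3 other scalings. Of the chondrocyte markers Acan, Col11a1, Col11a2 and Matn3 fell in this comparison, beside 1.74% of all tested genes called lower. Thy1 and Cd34 of the fibroblast or synovial markers rose, as did all 3 tested macrophage markers, the osteoblast marker Bglap, the muscle marker Des and the adipocyte marker Fabp4. Over all tested genes 8.11% were called higher. The calls of Acan, Cd34, Lyz2 and Bglap held with any 1 library left out. Those of Col11a1, Col11a2 and Des were lost without library 2 or 3 of the ST045849 group, any single bleomycin library, or vehicle library 2 or 3 (adjusted p up to 0.176). The call of Matn3 was lost without vehicle library 2, and those of Cd68 and Cd14 without vehicle library 2 or 3. That of Thy1 was lost without either of these or library 2 of the ST045849 group, and that of Fabp4 without any of these or library 3 of the ST045849 group (adjusted p up to 0.137). Their part in the antagonist values was not tested.

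**Figure D4:**
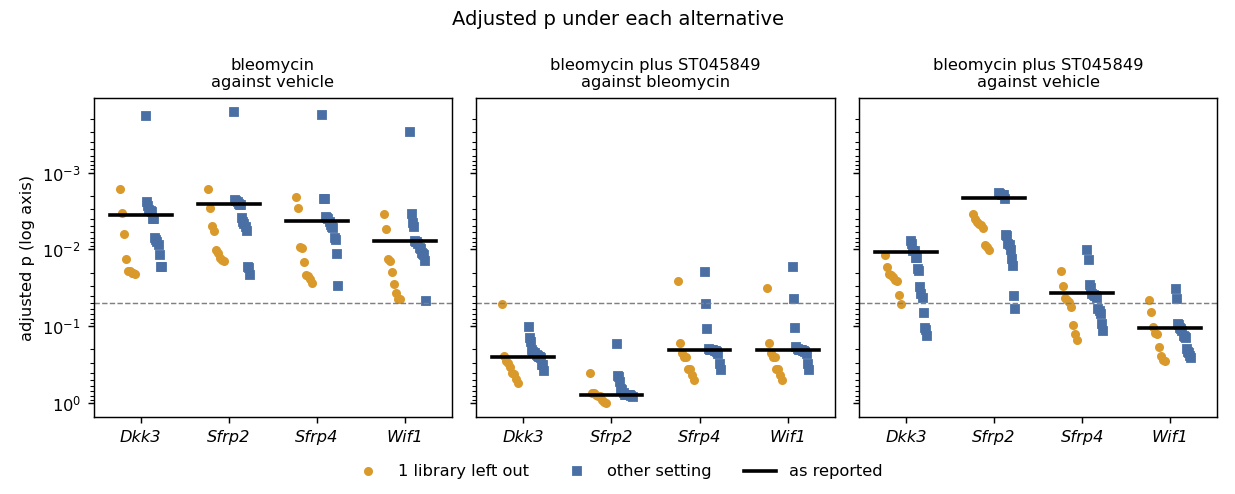
Adjusted p (y axis, log scale with small values at the top) of the 4 antagonist genes that rose after bleomycin, as reported (black line), with 1 library left out (circles) and under each other setting (squares), in the 3 comparisons. The dashed line is 0.05. In the left panel every point lies above the line, at 0.0468 or less, and in the middle panel only some points of Sfrp4 and Wif1 do.

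Outside the antagonists, 6 of the 53 tested genes that make, carry, receive, pass on or respond to WNT signals rose after bleomycin and none fell. They were Wnt11, Fzd5, Rspo2, Notum, Ccnd1 and Axin2, or 11.3% of the 53, beside 4.20% of all tested genes called higher. Notum and Axin2 were below 1 FPKM in every vehicle library, so they passed the filter only through the groups with bleomycin. Fzd5 was below 1 FPKM in vehicle library 1 and also needed those groups to pass. These lists were chosen with earlier results of these data known, so the shares are a description only. Of 19 WNT ligand genes 6 were tested, and after bleomycin 1 rose and none fell (median log2 difference 0.37). It was Wnt11, a ligand of the branch that does not use beta-catenin, with 5.69, 9.68 and 7.71 FPKM in bleomycin libraries, against 2.11, 1.86 and 1.28 FPKM in vehicle libraries. The groups lay apart, and the log2 difference was 1.65 ± 0.25 (limma adjusted p = 0.0045). With bleomycin plus ST045849 Wnt11 had 6.65, 11.7 and 8.09 FPKM, again above vehicle (1.81 ± 0.25, limma adjusted p = 0.00246). Wnt5a, of the same branch, averaged 2.15 FPKM with bleomycin plus ST045849, 3.30 FPKM with bleomycin and 1.43 FPKM with vehicle. It passed in no comparison of the main test (limma adjusted p = 0.144 in bleomycin against vehicle). In that comparison 5 of 23 alternatives called it, among them that without library 2 of the ST045849 group (limma adjusted p = 0.0211). Wls, the carrier that brings WNTs to the cell surface, and Porcn, the enzyme that attaches their lipid, did not pass in any comparison of the main test, with limma adjusted p = 0.157 and 0.437 in bleomycin against vehicle. In bleomycin plus ST045849 against vehicle, 3 of 24 alternatives called Porcn, among them that without library 1 of the ST045849 group (limma adjusted p = 0.0406).

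Of 16 receptor genes 13 were tested, and after bleomycin 1 rose and none fell (median 0.35), beside 4.20% of all tested genes called higher. Fzd5, a Frizzled receptor, had 3.96, 3.26 and 4.59 FPKM in bleomycin libraries, against 0.837, 1.12 and 1.88 FPKM in vehicle libraries. With vehicle library 1 below 1 FPKM, Fzd5 passed the filter only with the help of the groups with bleomycin. Its log2 difference was 1.13 ± 0.25 (limma adjusted p = 0.0276), a call that was lost with no filter and without any single bleomycin library or vehicle library 1 or 2 (adjusted p up to 0.106). With bleomycin plus ST045849 it had 3.30, 1.41 and 1.96 FPKM, lower than bleomycin by 0.65 on the log2 scale (limma adjusted p = 0.204, and 0.0404 with the replicate block in this pair of groups). Ryk and Fzd9, the tested receptor genes with the highest mean, had 49.6 to 76.9 FPKM and 32.4 to 65.9 FPKM in bleomycin libraries, against 48.5 to 69.4 FPKM and 30.7 to 44.6 FPKM in vehicle libraries, and passed in no comparison.

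R-spondins strengthen WNT signalling by removing the ligases RNF43 and ZNRF3, which take Frizzled off the surface, and the R-spondin gene Rspo2 rose beside the antagonists. Of 9 genes of this axis 4 were tested, and after bleomycin 1 rose and none fell (median 0.46), beside 4.20% of all tested genes called higher. Rspo2 had 14.1, 10.4 and 10.8 FPKM in bleomycin libraries, against 1.55, 1.21 and 1.20 FPKM in vehicle libraries. The log2 difference was 2.45 ± 0.32 (limma adjusted p = 0.00283). With bleomycin plus ST045849 Rspo2 had 10.7, 3.10 and 6.18 FPKM, with library 1 highest and library 2 lowest as for Wif1 and Sfrp4. Against bleomycin that was -0.85 ± 0.32 on the log2 scale (limma adjusted p = 0.203, and 0.0285 with the replicate block in this pair of groups). Against vehicle it was 1.60 ± 0.32 (limma adjusted p = 0.013), a call lost with no filter and without vehicle library 2 or 3 (adjusted p up to 0.0602). Rspo3 and the receptor gene Lgr4 did not pass in any comparison.

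Among 11 other extracellular WNT inhibitors and DKK receptors, 4 were tested and 1 rose after bleomycin (median 0.73), beside 4.20% of all tested genes. That gene, Notum, passed the filter only through the groups with bleomycin. Notum, a secreted enzyme that strips the lipid from WNT proteins, had 1.41, 1.31 and 1.11 FPKM in bleomycin libraries, against 0.209, 0.279 and 0.115 FPKM in vehicle libraries. Its log2 difference was 0.92 ± 0.15 (limma adjusted p = 0.00615). With bleomycin plus ST045849 it had 1.10, 0.836 and 0.920 FPKM, again above vehicle (0.70 ± 0.15, limma adjusted p = 0.0163). That call was lost without vehicle library 2 (adjusted p = 0.0575) or 3 (0.0885) and with the gene length trend removed (0.113). A replicate block in this pair of groups alone lost it too (0.11, and 0.26 with the length trend removed as well). Trabd2b, a membrane protease that cleaves WNT proteins, averaged 33.1 ± 2.16 FPKM after bleomycin and 20.5 ± 0.863 FPKM with vehicle (SD, n = 3 each) and missed the threshold (limma adjusted p = 0.063). It was called in 5 of 24 alternatives, among them that without library 1 of the ST045849 group (limma adjusted p = 0.0363). Kremen1, a receptor of Dkk1 and Dkk2, averaged 14.6 ± 2.61 FPKM after bleomycin and 7.97 ± 1.78 FPKM with vehicle (limma adjusted p = 0.122).

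All 18 genes of beta-catenin turnover and its nuclear partners were tested, and limma called none in bleomycin against vehicle (2 had an unadjusted p under 0.05; median 0.11, near the 0.10 of all genes). The highest in this list, Ctnnb1, which encodes beta-catenin, averaged 205.9 ± 12.0 FPKM after bleomycin and 257.1 ± 33.2 FPKM with vehicle (SD, n = 3 each; limma adjusted p = 0.681). Csnk1a1, a kinase that marks beta-catenin for destruction, did not pass in any comparison. In bleomycin plus ST045849 against vehicle 1 of the 18 fell, Apc, a scaffold of the destruction complex, beside 1.74% of all tested genes called lower. Apc had 2.15, 0.663 and 1.18 FPKM with bleomycin plus ST045849, against 2.64, 5.96 and 5.11 FPKM with vehicle (-1.25 ± 0.34, limma adjusted p = 0.0414), a call kept in 12 of 23 alternatives and lost without library 2 or 3 of the ST045849 group, bleomycin library 3, or vehicle library 2 or 3 (adjusted p up to 0.171). Against bleomycin, where Apc had 6.70, 2.70 and 5.25 FPKM, the difference was -1.32 ± 0.34 (limma adjusted p = 0.203, and 0.00745 with the replicate block in this pair of groups).

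Genes that respond to beta-catenin in many tissues were also followed: 11 of 16 were tested, 3 rose after bleomycin, none fell, and the median log2 difference was 0.44, where 4.20% of all tested genes were called higher. Ccnd1, which encodes cyclin D1 and has many inputs besides WNT, had 53.5, 78.5 and 81.8 FPKM in bleomycin libraries, against 16.2, 13.9 and 16.6 FPKM in vehicle libraries (2.11 ± 0.21, limma adjusted p = 0.000848). Notum, given above, was another of the 3. The last was Axin2, a feedback inhibitor of the pathway, which is named here after its values were seen. Like Notum, it passed the filter only through the groups with bleomycin. It had 1.44, 2.06 and 2.13 FPKM after bleomycin, against 0.495, 0.592 and 0.511 FPKM with vehicle (0.90 ± 0.16, limma adjusted p = 0.0115), a call lost without bleomycin library 2 or 3 or vehicle library 2 or 3 (adjusted p up to 0.0613). With bleomycin plus ST045849 Axin2 had 1.24, 0.843 and 1.02 FPKM, below every bleomycin library (-0.50 ± 0.16, limma adjusted p = 0.203, and 0.0683 with the replicate block). Without library 1 of the ST045849 group that difference passed (limma adjusted p = 0.0495), in a fit that called 2225 of the 12441 tested genes. Myc averaged 13.6 ± 0.635 FPKM with bleomycin plus ST045849, 9.13 ± 1.58 FPKM with bleomycin and 13.3 ± 4.16 FPKM with vehicle (SD, n = 3 each) and passed in no comparison.

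None of these 7 lists had a member called by limma in bleomycin plus ST045849 against bleomycin without the block, and 8 of their 53 tested genes, or 15.1%, had an unadjusted p under 0.05, beside 22.5% of all tested genes. With the block in this pair of groups, Fzd5, Rspo2, Apc, Bcl9 and Bcl9l fell and none rose, which is 9.43% of the 53, beside 8.0% of all tested genes called lower. Bcl9 and Bcl9l, nuclear partners of beta-catenin, are named after their values were seen. All 5 were also called without library 1 of the ST045849 group and no block, a fit that called 2225 of the 12441 tested genes. None of the 5 was called with the block in the fit of all 9 libraries or with the length trend removed as well.

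**Figure D5:**
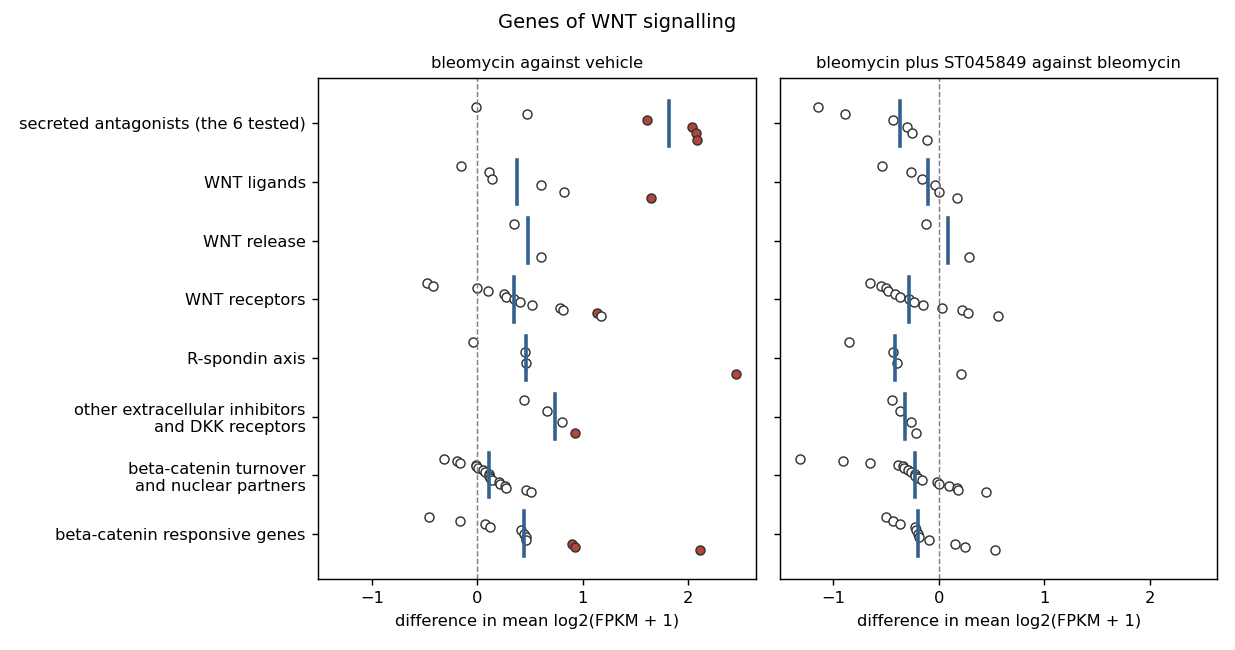
Difference in mean log2(FPKM + 1) (x axis) of each tested gene of the WNT pathway, by list (y axis), after bleomycin against vehicle (left) and after bleomycin plus ST045849 against bleomycin (right). Filled points were called, vertical bars are list medians, and a gene in more than 1 list is drawn in each. The antagonists have the highest median of the 8 lists on the left, 1.82, and no point is filled on the right.

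The genes whose log2(FPKM + 1) followed the 3 most abundant antagonists most closely over the 9 libraries were listed by Pearson correlation, as a description over libraries that share their groups. For Dkk3 they were Fhl1 (r = 0.986), Rgl1 (0.984) and Maob (0.984). Fhl1, a LIM-domain protein best known in muscle, averaged 32.2 FPKM with bleomycin plus ST045849, 42.2 FPKM with bleomycin and 13.3 FPKM with vehicle. For Frzb they were Agtr2 (0.962), Crispld1 (0.958) and Dpt (0.943), and Crispld1 averaged 47.9 FPKM with bleomycin plus ST045849, 69.3 FPKM with bleomycin and 37.0 FPKM with vehicle. For Sfrp2 they were Gm2a (0.978), Mansc1 (0.978) and 9530068E07Rik (0.970), and Gm2a, a lysosomal lipid-transfer protein, averaged 21.0 FPKM with bleomycin plus ST045849, 21.7 FPKM with bleomycin and 8.76 FPKM with vehicle. The Sfrp2 and Gm2a means differed little between the groups with bleomycin, whereas the Dkk3 and Fhl1 means were lower with ST045849 than with bleomycin alone. Gm2a and Fhl1 were picked by their correlation over these same libraries, so the likeness of their means follows from that choice.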

How the data were processed

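Poly(A) RNA was sequenced with a stranded kit, per the labels' protocols. Trimmomatic, STAR and GRCm38 are named in the submitters' processing notes. Versions, the counting program, its annotation and its use of strand are not stated there or in the labels. The authors deposited FPKM per gene and library, which were used as they stand. Coordinates, exon blocks and exon lengths came from GENCODE vM21 (GRCm38), and promoter windows from RefSeq (GRCm38.p6).

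Genes that reached 1 FPKM in 3 or more of 9 libraries were fitted as log2(FPKM + 1) in 1 model of 3 groups with limma 3.58.1 (R 4.3.3), with variances that follow the mean and Benjamini-Hochberg adjustment over 12441 genes. The fit was tested on simulated data. The antagonist genes, the WNT lists and the marker lists were chosen with earlier results of these data known, and lists are described by counts and medians. Besides the 9 antagonists, the text names up to 2 risen and 2 fallen called genes per WNT list and comparison by adjusted p, or else the 2 with the highest mean, and the 3 genes most correlated with each of the 3 most abundant antagonists. Lgr5, Rnf43, Znrf3, Notum, Apcdd1, Lef1 and Tcf7 stand in more than 1 WNT list.

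The labels give replicates the same numbers in every group and state no pairing. Correlations of deviations from the group means between same-numbered libraries were 0.47, 0.48 and 0.50 for bleomycin plus ST045849 and bleomycin, so the numbers were taken to pair those groups, from the data and not from the design. They were -0.071, -0.026 and 0.546 for bleomycin and vehicle, and -0.519, -0.279 and 0.424 for bleomycin plus ST045849 and vehicle, which were not taken as paired. Alternatives were other pseudocounts (0.1 and 0.5), filters, scalings, variance models, a gene length correction, replicate blocks, and leaving out each library in turn. Intervals and depth could not be derived from FPKM as counting error, and the steps between low values gave relative depth only.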

Additional observations from a re-analysis of the deposited data

How the results depend on the processing

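The call of Dkk3, Sfrp2, Sfrp4 and Wif1 in bleomycin against vehicle held under every alternative in which the gene was tested, with 3 to 4 antagonists called (3 with a mean of at least 5 FPKM, a filter that drops Sfrp4). In bleomycin plus ST045849 against bleomycin the count of antagonists called, 0 as reported, was 2 with the pair of groups alone and a replicate block, 1 with the gene length trend removed as well, and 0 to 2 with 1 library left out, 2 being without library 1 of the ST045849 group. In bleomycin plus ST045849 against vehicle the count, 3 as reported, was 1 after rescaling to TPM, 1 with the pair of groups alone and a replicate block, 1 with the gene length trend removed as well, and 1 to 4 with 1 library left out, 1 being without vehicle library 2. In the comparisons with vehicle, libraries of the same number are not known to share more than that number. There, in bleomycin plus ST045849 against vehicle, the block lost Dkk3 (adjusted p = 0.134) and Sfrp4 (0.0597) and, with the length trend removed, Sfrp2 (0.059), and with the block in the fit of all 9 libraries Wif1 passed (0.0447). In bleomycin plus ST045849 against bleomycin the pair of groups with a block called Wif1 and Sfrp4, and the block changed no other antagonist call. The cause was not tested.

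Signs turned only for differences that did not pass in either direction. Sfrp1 in bleomycin against vehicle came to 0.009 after rescaling to TPM, and to 0.055, 0.181 and 0.005 without bleomycin library 3, vehicle library 2 and vehicle library 3 (-0.23 to 0.181 with 1 library left out). Frzb in bleomycin plus ST045849 against bleomycin came to 0.095 without library 2 of the ST045849 group and 0.04 without bleomycin library 1 (-0.82 to 0.095 with 1 library left out), and Sfrp2 came to 0.022 without library 2 of the ST045849 group (-0.302 to 0.022). Frzb in bleomycin plus ST045849 against vehicle came to -0.06 after median-of-ratios scaling, -0.131 after quantile normalization, -0.087 after rescaling to TPM, -0.002 with array weights, -0.352 without library 1 of the ST045849 group and -0.041 without vehicle library 1 (-0.352 to 0.563 with 1 library left out).

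Counts over all genes moved more than those of the antagonists. Bleomycin against vehicle called 607 genes, 284 with a mean of at least 5 FPKM, 1024 in the pair of groups alone, 1938 with array weights, 1329 with the length trend removed and a block, and 184 to 829 with 1 library left out. Bleomycin plus ST045849 against bleomycin called 0, 2403 in the pair of groups with a block, 141 with the length trend removed too, and 2225 without library 1 of the ST045849 group. Bleomycin plus ST045849 against vehicle called 1225, and 199 to 3060 under the alternatives. Rescaling to TPM moved the median log2 difference of all genes to -0.19 in bleomycin plus ST045849 against bleomycin (0.06 as deposited) and to -0.02 in bleomycin plus ST045849 against vehicle (0.19 as deposited), where median-of-ratios and quantile scaling also moved it to about 0 (-0.004 and 0.02). With 3 libraries a group the precision of each difference is limited, and the filter left levels under 1 FPKM (Sfrp5, Dkk1, Dkk2) out of the main test.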
